A study of Paeonia ostii with 18 samples.

Results

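Among 14949 probes of a tree peony bud array, 75 had their lowest level after 24 d of chilling and at no other time. A probe was taken when each of the 3 arrays of 24 d lay below each of the 15 arrays of the other times in the deposited log2 value table, and when its 24 d mean lay at least 0.3 below the mean of every other time. The members were thus chosen by their 24 d values, so every level and difference at 24 d given here is a description without a test. Tests were made only among 0, 6, 12, 15 and 18 d, whose arrays enter the rule by lying above those of 24 d. That condition can favour probes that moved and scattered little over those times. Counts of members called there are thus not independent of the rule.

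The arrays measured RNA from flower buds of 4-year-old *Paeonia ostii* 'Feng Dan Bai' plants kept at 0 to 4 °C for 0, 6, 12, 15, 18 or 24 d. Each time had 3 replicates, each replicate mixed buds of 3 plants with 3 buds per plant, and every sample had a single-channel array of its own, 18 in all. The study regarded buds with less than 18 d of chilling as endo-dormant, that is, held from growth by the bud itself. It placed the release from endo-dormancy at 18 d and regarded later buds as eco-dormant, that is, held from growth by the surroundings. These states were judged from bud break and blossom of plants moved to a green house after chilling. Chilling time was the only labelled difference between the groups, all samples came from 1 cultivar, and unchilled buds of the same dates were not analysed here, so chilling and the passing of time cannot be told apart. A bud is a mixture of scales, leaf primordia and floral organs, and with whole buds fewer cells of a type and less RNA per cell cannot be told apart either.

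Chilling lifts endo-dormancy in the buds of many woody plants, and the meristems inside a bud regain the ability to divide and grow after that. Dividing cells copy their DNA with a sliding clamp that holds the polymerase on the template, draw deoxyribonucleotides from ribonucleotide reductase, pack the new DNA with freshly made histones, and copy the methylation of cytosines onto the new strand with a maintenance methyltransferase. Genes of that set are commonly expressed together while DNA is being replicated.

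Of the 75 members, 55 carried a description or symbol in the study's lists, 22 of them a protein name or gene symbol, and 20 were not described. These lists hold probes that the study called changed on these arrays, and its probes for gibberellin response and signalling, changed or not. On the whole array 3753 probes were described and 1278 named. The descriptions name the most similar protein of another plant, such as grape, poplar, castor bean or *Arabidopsis thaliana*, and gene roles given here are known from *Arabidopsis* or from plants in general, not from peony. Outside the gibberellin probes, the description of a probe depended on its having changed on these same arrays. The share of described members is thus not independent evidence of anything at 24 d. No described probe was named for a floral organ identity gene, so the bud label was not checked against such markers.

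Measured on quantile-normalized log2 intensities, the 24 d mean of the members lay below the mean of the other 5 times by a median of 0.75 log2 units, 1.68-fold, with a range of differences from -2.26 to -0.39. Over all probes the median of that difference was 0.02. In 21 members the 24 d mean was more than 2-fold lower, and 4 of those 21 were not well above background on all 3 arrays of 24 d, so that their folds are less well measured. The members were mostly bright probes. Their median level over 0 to 18 d was 13.32 against 10.72 for all probes, and 66 of them (88.0%, against 73.4% of all probes) were well above background on all 18 arrays. At 24 d, 67 members were above background on all 3 arrays and 1, the undescribed CUST_66, on none.

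Before 24 d the median member neither rose nor fell steadily. Relative to each probe's own mean over 0 to 18 d, the median member began at -0.02 without chilling. It was 0.09 after 6 d, 0.12 after 12 d, -0.17 after 15 d and -0.03 after 18 d, and the 24 d value was -0.75. The highest mean was at 12 d for 30 of the 75 members and at 6 d for 20. Among the 5 times of 0 to 18 d, 16.9% of all probes were highest at 12 d and 11.3% at 6 d. The other members were highest at 0 d (12), 15 d (3) and 18 d (10). The shares of all probes there were 27.6%, 16.5% and 27.6%. After 24 d, the lowest mean was at 15 d for 41 members, or 54.7%, and 15 d was the lowest of the same 5 times for 16.4% of all probes. On the single arrays the median member lay at -0.27, -0.25 and -0.04 at 15 d, at 0.22, -0.06 and -0.23 at 18 d, and at -0.69, -0.79 and -0.74 at 24 d. The replicates of 18 d therefore spread more widely than the medians of 0 to 18 d, and those of 24 d lay close to each other.

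**Figure D1:**
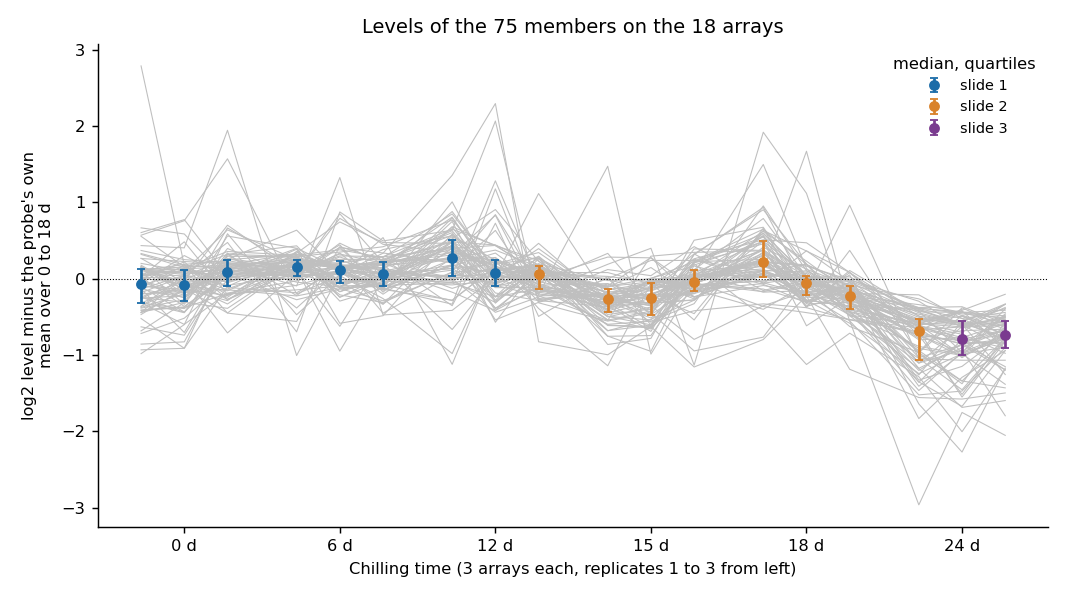
The log2 level of each of the 75 members on each of the 18 arrays minus the probe's own mean over 0 to 18 d (vertical axis) is drawn as 1 grey line per probe over the arrays in order of chilling time (horizontal axis). Coloured points are the median over members with the quartiles, coloured by slide, and the medians of the 3 arrays of 24 d lie at -0.69, -0.79 and -0.74.

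The members that serve DNA replication had similar courses. Histone H3 (CUST_2804), a core protein of the nucleosome, had log2 levels of 15.89, 15.50 and 16.31 at 0 d, 16.72, 16.79 and 16.69 at 6 d, and 17.26, 16.54 and 16.70 at 12 d. It then had 15.55, 15.63 and 16.64 at 15 d, 17.06, 16.60 and 16.30 at 18 d, and 14.58, 15.12 and 15.47 at 24 d. The highest of its 24 d arrays, replicate 3, lay just below the lowest arrays of 0 and 15 d, and the other 24 d arrays lay further below. Its 24 d mean of 15.06 ± 0.45 (SD, n = 3) was 2.56-fold below the mean of the other times and 3.42-fold below 12 d. Histones form families of nearly identical genes, and such a probe can take up signal from several of them.

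PCNA1 (CUST_4202), the sliding clamp of DNA polymerase, had 10.30, 10.20 and 10.48 at 0 d and 10.58, 10.27 and 10.29 at 6 d. The 12 d arrays gave 11.07, 10.82 and 10.48 and the 15 d arrays 9.85, 9.73 and 10.41. Those of 18 d gave 10.77, 10.34 and 10.24 and those of 24 d 8.98, 9.41 and 9.60. Its 24 d mean was 2.09-fold below that of the other times, and its next lowest mean was at 15 d. The small chain of ribonucleoside-diphosphate reductase (CUST_4182), part of the enzyme that makes deoxyribonucleotides, started at 16.47, 16.76 and 17.12, with 17.12, 17.12 and 17.20 after 6 d and 17.31, 17.35 and 17.15 after 12 d. It had 16.42, 16.31 and 16.91 after 15 d and 17.15, 16.84 and 16.49 after 18 d, and 15.45, 15.95 and 16.17 in the 24 d buds. Here too 12 d was highest and 15 d next lowest after 24 d, and the 24 d mean was 2.08-fold below the mean of the other times. CUST_10060, described only as a hypothetical protein and placed by the study in the DNA replication pathway, lay between 16.64 and 17.55 on the 15 arrays of 0 to 18 d and at 16.02, 16.51 and 16.33 at 24 d.

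The members that act on chromatin, the cell cycle and repair also had 15 d as their next lowest mean. MET1 (CUST_14695), the methyltransferase that maintains cytosine methylation after replication in *Arabidopsis*, gave 15.07, 15.00 and 15.41 before chilling, 15.50, 15.69 and 15.68 on the 6 d arrays and 16.04, 15.83 and 15.46 on the 12 d arrays. Later arrays gave 14.71, 14.86 and 15.11 for 15 d, 15.99, 15.43 and 15.10 for 18 d and 14.19, 14.54 and 14.24 for 24 d. Its 24 d mean was 2.10-fold below that of the other times. An ISWI ATPase (CUST_4204), the motor of a complex that moves nucleosomes, lay at 8.99, 8.86 and 8.88 at 24 d, and its arrays of 15 d, at 9.03, 9.10 and 9.62, came close to these, so that it stood apart from 15 d by 0.34 in the means. UVI4 (CUST_6598), an inhibitor of the complex that degrades cyclins, which restrains endoreduplication in *Arabidopsis*, had 13.35, 12.57 and 13.33 at 24 d and lay between 13.60 and 14.63 before. A DNA-3-methyladenine glycosylase (CUST_7416), a base excision repair enzyme, differed less, with 13.49, 13.54 and 13.70 at 24 d against 13.70 to 14.48 before, a 1.43-fold lower mean.

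**Figure D2:**
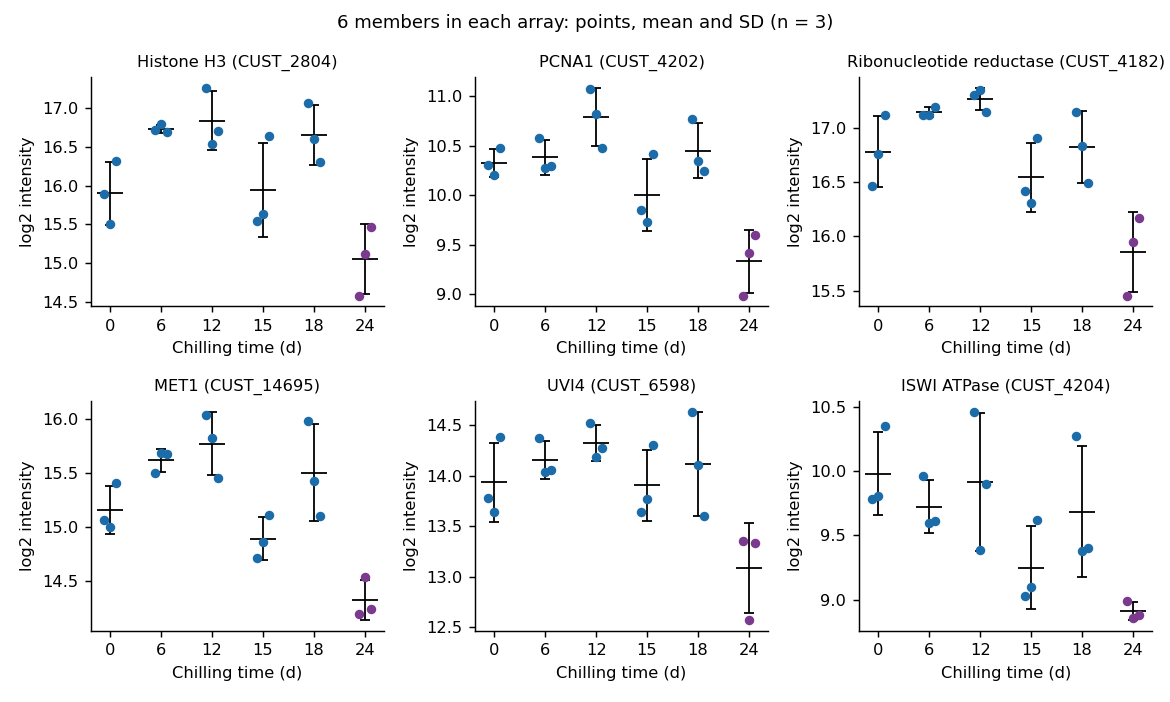
Log2 intensity (vertical axes, which do not start at 0 and differ between panels) of 6 members at each chilling time (horizontal axes, times evenly spaced), with 1 point per array, the mean as a long dash and the SD as a bar, n = 3 per time. All points of 24 d, in purple, lie below all points of the other times, as the rule required, and 15 d is the next lowest mean in all panels but that of histone H3, where it is 0 d.

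The resemblance of these profiles was also measured over the earlier arrays, around 4 members picked for their roles. The rule that chose the members used these arrays too, so the shares below are not independent of it. Over the 15 arrays of 0 to 18 d the correlations among PCNA1, MET1, histone H3 and the reductase small chain ran from 0.80 to 0.89. Of the 74 other members, 17 (23.0%) had a correlation of 0.7 or more with PCNA1, against 1.2% of the 14771 probes compared. For MET1 these numbers were 20 members (27.0%) and 1.41%. Histone H3 had 19 such members (25.7%, against 1.79% of all) and the reductase 15 (20.3%, against 0.9%). Each count of members includes the other picked probes, as all 4 reached 0.7 with each other. The members that reached 0.7 with all 4 of these probes included UVI4, the glycosylase, CUST_10060, the pentatricopeptide repeat protein CUST_824, and a thioredoxin and a thioredoxin reductase. These correlations describe 15 arrays that share labelling, slides and normalization, and the differences between replicates of 1 time, wide at 15 and 18 d, enter them as the times do. At least 1 of the 4 was matched at 0.7 by 20 other members, and all 4 by 10 of these. The probes compared also included dimmer ones, and 88.0% of members but 73.4% of all probes were well above background on all 18 arrays. Members lay on the right of the array in 74.7% of cases, against 48.8% of all probes. What part the rule, brightness and position have in the shares above was not tested.

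The thioredoxin system supplies electrons to ribonucleotide reductase and other enzymes. NTRA (CUST_6629), an NADPH-dependent thioredoxin reductase, had 13.62, 13.65 and 13.94 at 0 d and 14.13, 14.05 and 14.06 at 6 d. The 12 d arrays gave 14.68, 13.86 and 14.05 and the 15 d arrays 13.26, 13.25 and 13.83. Those of 18 d gave 14.44, 13.75 and 13.54 and those of 24 d 12.96, 12.87 and 13.10. Its 24 d mean was 1.86-fold below the others and its correlations with PCNA1, MET1, histone H3 and the reductase were 0.87, 0.91, 0.89 and 0.86. Thioredoxin 2 (CUST_7631) lay at 14.36, 14.23 and 14.60 at 24 d and between 14.67 and 15.37 before, 1.45-fold lower. CUST_824, of a protein family that mostly acts on RNA in mitochondria and chloroplasts, had 12.13, 12.18 and 12.75 at 24 d. Its array values of 15 d, at 12.90, 12.70 and 13.83, overlap these in the quantile-normalized scanner intensities, although they do not in the value table that chose it.

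Purine metabolism was represented by an AMP deaminase and an amidophosphoribosyltransferase. The AMP deaminase (CUST_12086), which turns AMP into IMP, had 6.64, 6.13 and 6.22 at 24 d, a mean 2.80-fold below that of the other times, but its replicates before 24 d spread widely, with 8.45, 9.88 and 7.50 at 12 d and 7.26, 7.37 and 6.87 at 15 d. The amidophosphoribosyltransferase (CUST_7432), which opens the synthesis of purines, was left out on replicate 3 of 24 d because its spot was flagged there, and its other arrays of 24 d gave 13.59 and 13.78 against 13.87 to 14.54 before. NRPC2 (CUST_10335), a large subunit of RNA polymerase III, which makes transfer RNAs and other small RNAs, lay at 6.33, 6.43 and 6.45 at 24 d and between 6.67 and 7.95 before. CUST_3841, which the study placed in the ribosome pathway without a protein name, had 10.50, 9.87 and 10.97 at 24 d, 3.23-fold below the other times, and was highest at 0 d with 12.71, 12.90 and 13.71.

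Of 3 transcription factors, GLK2 (CUST_12672), which promotes chloroplast development in *Arabidopsis*, had the flattest course before 24 d. It lay between 15.02 and 15.67 on the 15 arrays of 0 to 18 d and at 14.82, 14.68 and 14.54 at 24 d, 1.70-fold lower. HB22 (CUST_8273), a homeobox protein, lay at 13.85, 13.74 and 14.02 at 24 d and between 14.05 and 14.73 before. LRL1 (CUST_8952), a basic helix-loop-helix protein that acts in root hairs in *Arabidopsis*, started at 12.01, 12.18 and 11.45, with 11.60, 11.30 and 11.54 after 6 d and 11.23, 10.99 and 11.50 after 12 d. It had 11.22, 11.19 and 11.48 after 15 d and 11.23, 11.25 and 10.93 after 18 d, and 10.80, 10.57 and 10.56 in the 24 d buds. Each array of 18 d lay below each array of 0 d.

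Other named members belonged to the cell wall and to transport. GAUT1 (CUST_12546), which builds the pectin homogalacturonan, was 1.36-fold lower at 24 d, the smallest fold among the named members, with 13.48, 13.49 and 13.27 against 13.56 to 14.13 before. A fasciclin-like arabinogalactan protein (CUST_5944), a cell surface protein, lay at 7.23, 7.07 and 7.14 at 24 d and the 15 and 18 d arrays, at 7.73, 7.36 and 7.51 and at 7.60, 7.55 and 7.39, came near these. SAD2 (CUST_3343), an importin that carries proteins into the nucleus, was 1.46-fold lower, with 13.91, 13.86 and 13.91 at 24 d. The 3 probes that the study filed under transporters by *Arabidopsis* locus, AT5G04160 (CUST_5195), AT3G17340 (CUST_13964) and AT5G52860 (CUST_7821), were 1.65-fold, 1.58-fold and 1.59-fold lower. The member with the widest gap was CUST_7652, similar to a hypothetical sorghum protein. Its 24 d arrays, at 7.45, 8.66 and 8.36, lay 4.78-fold below the mean of the other times, and its arrays of 18 d ranged from 9.86 to 12.33.

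Few members were called as changed among the 5 earlier times, which the rule can itself favour. The range of their means over those times had a median of 0.52, against 0.64 for all probes. The SD between replicates had a median of 0.26, against 0.33. The moderated F test of limma over 0, 6, 12, 15 and 18 d, with Benjamini-Hochberg adjustment over all probes, called 668 of 14949 probes (4.47%) and none of the 75 members. The lowest adjusted p of a member was 0.08, for CUST_10060, and 13 members (17.3%) had an unadjusted p under 0.05 against 23.7% of all probes. Between 18 and 0 d, 8.21% of probes were called higher and 7.42% lower, and the only member called was LRL1. It fell by 0.75 ± 0.20 (log2, SE, n = 3 and 3, limma, adjusted p = 0.0294). Unadjusted, 11 members (14.7%) passed, against 31.4% of all probes. The 0 d arrays were all on slide 1 and the 18 d arrays all on slide 2, and with slide as a block the adjusted p of LRL1 was 0.164. Histone H3 differed by 0.75 between 18 and 0 d in the other direction (adjusted p = 0.125), and PCNA1, MET1 and the reductase by 0.12, 0.34 and 0.05 (adjusted p = 0.745, 0.329 and 0.909).

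Between 18 and 15 d limma called 0 of the 14949 probes higher and 0 lower. At an unadjusted p under 0.05 there were 1253 probes (8.38%), 6 members among them (8.0%), so the low levels of members at 15 d were not distinguishable from those of 18 d with 3 arrays each. Between 6 and 0 d, 0.0468% of probes were called higher, 0.114% lower, and none of the members. Without adjustment 10 members (13.3%) passed, against 15.7% of all probes.

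Around the members stand the other probes of their pathways, taken from 14 lists. The probes of these 14 also had to be among those that the study called changed or related to gibberellin. Their counts are thus no independent evidence. Of all probes on the array 16.7% had their lowest mean at 24 d, and 20.0% of described probes. Of the 14 probes for DNA replication and nucleotide supply, 3 were members and 7 had their lowest mean at 24 d, with a median difference of -0.45 from the other times. The largest difference on this list belonged to a thymidine kinase (CUST_6804, -1.23), which was no member because its arrays at 24 d, at 9.94, 10.13 and 10.76, overlapped those of 15 d, at 10.78, 10.53 and 11.69. Between 18 and 0 d, 3 probes of this list were called higher, among them a DNA polymerase alpha subunit (CUST_10862, 1.17, limma adjusted p = 0.00998), and 1 lower. Of the 3753 described probes, from which the lists were drawn, 569 were called higher and 577 lower in this comparison. The 0 and 18 d arrays were on different slides, and with slide as a block only 13 probes of the whole array were called.

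Of the 17 core histone probes, 1 was a member and 8 were lowest at 24 d, with a median of -0.68. The list was not uniform. Among the other histone H3 probes, CUST_14715 differed by -0.52 at 24 d and the H3.2 probe CUST_4606 by 0.63, and the histone H4 probe CUST_67, at -1.46, was lowest at 15 d. Of the 8 probes for SMC proteins, condensin and cohesion, the machinery that folds and holds chromosomes, 3 were lowest at 24 d with a median of -0.60 and none was a member. Of the 11 probes for cytosine methyltransferases and chromatin remodelling 2 were members and 5 were lowest at 24 d, with a median of -0.17. The largest difference on that list was that of CMT3 (CUST_13642), which methylates cytosines outside CG sites, at -1.27, with 24 d arrays, at 6.07, 5.19 and 4.98, that overlapped those of 0 d, at 6.34, 6.03 and 6.19. Of the 15 probes for cell cycle control and mitosis, UVI4 was the only member and 6 were lowest at 24 d, with a median of -0.25. The kinase WEE1 (CUST_9283), which holds back entry into mitosis, was called higher at 18 than at 0 d by 1.20 (limma adjusted p = 0.0098) and lay 0.68 lower at 24 d than over the other times. Between 18 and 0 d, 2 core histone probes, 3 probes of the SMC list and 1 of the cell cycle list were called higher and none lower, and the chromatin list had 1 higher and 2 lower. These small counts stand beside 8.21% of all probes called higher and 7.42% lower, and nothing particular to the lists was read from them.

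Among the remaining lists, the 5 tubulins had a median of -0.48 and a range of -1.03 to 0.67, and 1 was lowest at 24 d. The median was -0.32 for 17 cell wall and pectin probes, with 1 member and 9 lowest at 24 d. It was -0.25 for 18 heat shock proteins and chaperones, with 9 lowest at 24 d, and -0.17 for 9 aminoacyl-tRNA synthetases. Medians were -0.13 for 10 GRAS proteins, -0.05 for 9 auxin probes and 0.07 for 14 RNA polymerase and basal transcription factor probes with NRPC2 as the member. Of the 18 DNA repair probes 3 were lowest at 24 d, close to the 16.7% of all probes. The 6 probes for photosynthesis, used as markers of green tissue, went the other way, with none lowest at 24 d, a median of 0.38 and a range of -0.20 to 0.60. Their part in the levels of the members was not tested.

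**Figure D3:**
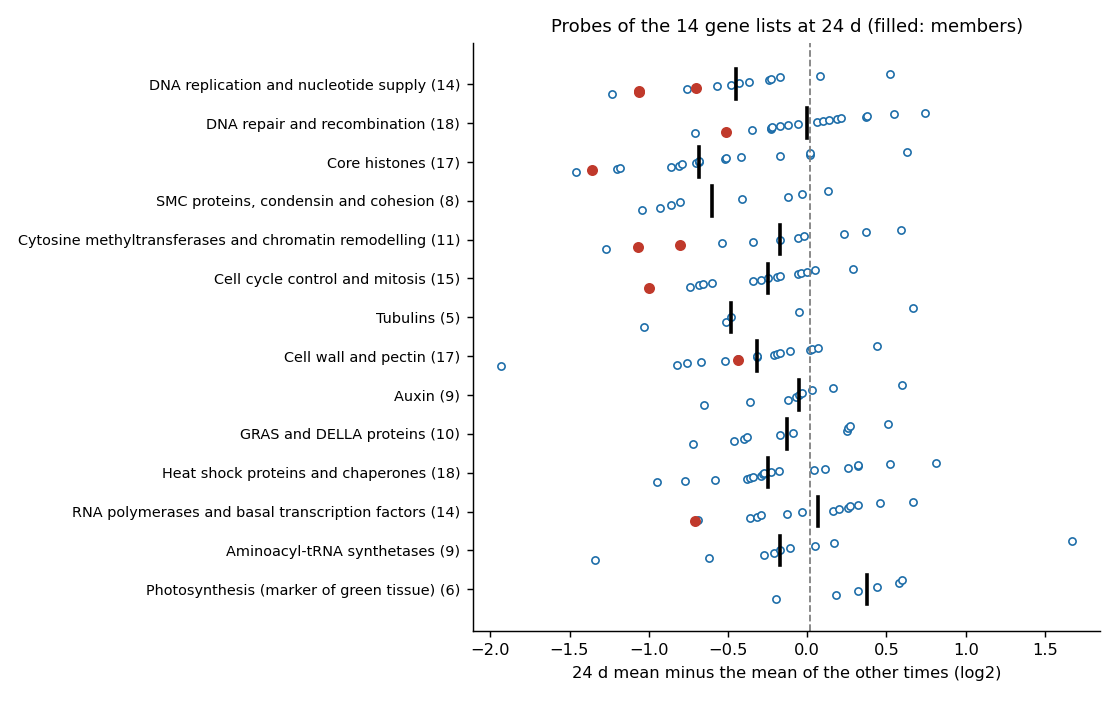
The 24 d mean minus the mean of the other 5 times (log2, horizontal axis) for each probe of the 14 gene lists (vertical axis, number of probes in brackets), with members as filled red points, other probes as open points, the median of each list as a black bar and the median of all probes, 0.02, as a dashed line. The medians of core histones, SMC proteins, tubulins and DNA replication lie furthest to the left, at -0.68, -0.60, -0.48 and -0.45, and that of photosynthesis furthest to the right, at 0.38.

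The arrays came on 3 slides. The 0 and 6 d arrays were on slide 1 together with 12 d replicates 1 and 2. Slide 2 carried 12 d replicate 3, the 15 and 18 d arrays and 24 d replicate 1. The other 2 arrays of 24 d were alone on slide 3, and for them slide and time cannot be told apart. Replicate 1 of 24 d shared its slide with 7 arrays of other times and lay below them by a median of 0.64 over the members, with differences from -3.22 to -0.18. The arrays of slide 3 lay below the same 7 arrays by a median of 0.67. Over all probes both medians were near 0, at -0.01 and 0.01, where quantile normalization holds them, so they are no check on the slides. The sign of the member medians is fixed by the rule, which used the 24 d values. That replicate 1 was below all 7 for every member is fixed by the rule, and it was so for 19.1% of all probes.

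**Figure D4:**
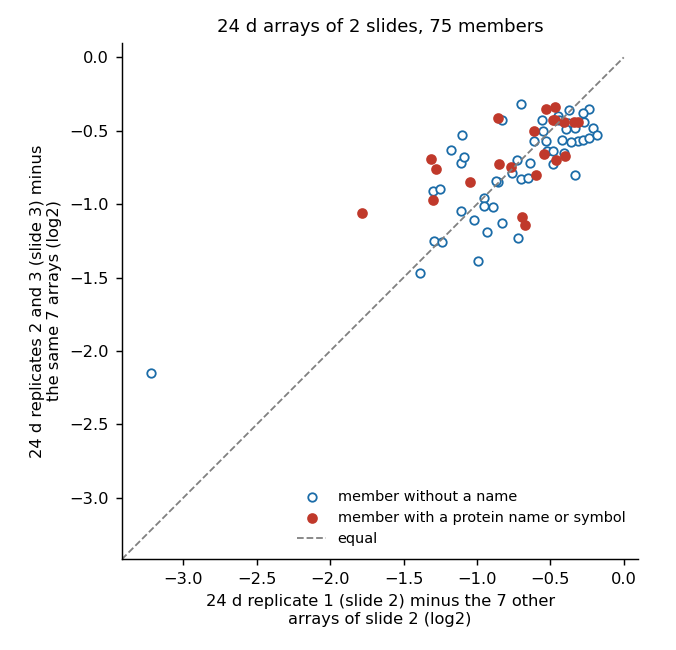
Each point is 1 of the 75 members, placed by the difference of 24 d replicate 1 from the 7 other arrays of its slide (horizontal axis, log2) and by the difference of 24 d replicates 2 and 3, on slide 3, from the same 7 arrays (vertical axis, log2). Filled points carry a protein name or symbol, and the points gather around the dashed line of equal differences, with medians of -0.64 and -0.67. Both axes subtract the same 7 arrays, and the rule placed the 24 d arrays below them, so nearness to the line is partly built in.

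The members were unevenly placed on the array. Of the 75, 56 (74.7%) lay on the right-hand side of the array's midline and 19 on the left, where 48.8% of all probes lay on the right. The probes highest only at 18 d by the same rule lay to the right in 73.0% of cases, those highest only at 24 d in 37.6%, and those lowest only at 0 d in 46.7%. The median difference at 24 d was -0.72 for members on the right and -0.77 for those on the left. After each array had been centred in 64 blocks, relative to the probe means, 75 probes met the rule, of which 51 were among the 75 members and 48 (64.0%) lay on the right. Of the 22 named members 19 still met the rule then, among them histone H3, PCNA1, MET1, the reductase, UVI4 and ISWI, and the 3 that did not were CUST_5944, CUST_7432 and CUST_13964. Of these replication and chromatin members PCNA1, histone H3 and UVI4 lay on the right and the others on the left. What part position has in the levels of single members was not tested.

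The rule has a threshold, and members near it are not far from probes left out. Just inside were CUST_4785, CUST_12928 and CUST_7670 with gaps of 0.307, 0.318 and 0.323 to the next lowest mean, and just outside were CUST_7586, CUST_6635 and CUST_2424 with 0.295, 0.295 and 0.293. Without the condition on single arrays, 536 probes would have met the margin on the means. By the same rule applied to the other times, 379 probes were lowest only at 0 d and 77 only at 18 d. The counts for 6, 12 and 15 d were 17, 18 and 23, and 93 probes were highest only at 24 d.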

How the data were processed

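Per the file headers, the deposited scanner intensity values came from Agilent Feature Extraction 10.5.1.1, which subtracted the background and removed spatial trends on each array, with nothing done between arrays. The other deposited table gives log2 values of 14949 probes after the authors' quantile normalization in GeneSpring. It chose the members. For levels and tests, the log2 of the intensity was used, flagged spots (non-uniform or population outlier) were left out (4 to 233 probes per array, the most on replicate 3 of 24 d, where 2 members lost a value), spots of a probe were averaged, control spots were dropped and arrays were quantile-normalized, giving 14957 probes. Of the probes, 82.2 to 96.5% per array were well above background, and the number of arrays limits the precision. In these values 69 of the 75 members met the rule as well.

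The 15 arrays of 0 to 18 d were fitted with limma 3.58.1 in R 4.3.3 (lmFit, eBayes), adjusted p under 0.05 by Benjamini-Hochberg over all 14949 probes tested. The code was tested on simulated data. Alternatives were other normalizations, background correction, margins, filters, slide and replicate blocks, priors and leaving out arrays. The labels give replicate numbers only, and that each replicate was 3 plants is from the study's methods. Correlations of deviations were from -0.234 to 0.273 between samples with the same number and from -0.325 to 0.231 between those with different numbers. The medians were -0.034 and -0.0019, so numbers were not taken to pair samples. The members, gene lists and tests were chosen with earlier results of these data known. Named were all members with a protein name or symbol, members called in a test, list probes beside their counts and probes next to the margin. CUST_3841, CUST_7652, CUST_66 and the list probes given by name outside that rule were chosen after their values were seen. No probe sequences were used here.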

Additional observations from a re-analysis of the deposited data

How the results depend on the processing

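The median difference of the 75 members at 24 d ran from -0.80 to -0.59 over the processing alternatives, and without single arrays of 24 d from -0.74 to -0.73. The number of probes that met the rule was 76 after quantile or 75th percentile scaling of the scanner intensities, with 69 and 52 of the 75 among them, 64 with normexp background correction, with 40, and 10 without normalization between arrays, with 7. It was 36 with a margin of 0.5 and 536 with the margin on the means alone. Leaving out an array gave 70 to 243 probes, the most without 24 d replicate 1 (243), 3 (234) or 2 (115), as fewer arrays had to be low. Centring the arrays in blocks was added after seeing the data and gave 75 probes and a median of -0.72.

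Among 0 to 18 d, the F test called 126 probes without normalization, 17 with slide as a block and 264 with the replicate block, and from 0 (without 0 d replicate 2) to 959 without single arrays. It called 2 members with normexp, 1 with a trended and robust prior, and 0 to 1 without single arrays (1 without 6 d replicate 1 or 12 d replicate 3). Between 18 and 0 d, 13 probes were called with slide as a block, and 1075 (without 18 d replicate 1) to 3095 (without 12 d replicate 2) without single arrays. The share of higher among called probes was 52.5%, but 36.0% with the 75th percentile and 78.6% without normalization, where the median of all probes shifted by 0.28 from 0. The members called numbered 3 without normalization, with normexp or with all 18 arrays, 2 with the dim filter or the trended prior, 0 with slide or the replicate block, and 0 to 3 without single arrays. LRL1 missed the threshold without each array of 0 d but replicate 3, without each of 18 d, with the replicate block (adjusted p = 0.0532), the 75th percentile (0.0552), slide (0.164) and no normalization (0.378), over a range of 0.0108 to 0.378. Histone H3 was called higher at 18 than at 0 d with normexp alone (0.92, adjusted p = 0.0369). Between 18 and 15 d, 1 probe was called with the 75th percentile or without normalization, 3 with all 18 arrays, 0 to 14 without single arrays. Between 6 and 0 d, the counts were 14 (75th percentile), 2 (no normalization), 90 (normexp), 113 (dim filter), 12 (all 18 arrays), 14 (slide), 0 (replicate block), 65 (trended prior) and 0 to 128 without single arrays. No member was called in these last comparisons under any alternative. The causes were not tested.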
